A study of Mus musculus with 2 samples.

Results

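The 10 genes Itgam, Itgb2, Itgax, Itgal, Itgav, Itgb5, Itgb1, Itga4, Itga6 and Itga9 encode integrin subunits of microglia and other leukocytes. They were taken by symbol from deposited tables of 32285 genes, and each of the 10 had 1 row in the table of every one of the 8 mice. The cells were live single CD45+ cells sorted from the brains of 12-week-old mice, tagged per mouse, pooled into 1 library and sequenced from the 3′ ends of their transcripts. All 8 mice carried the floxed allele of Arpc4 on both chromosomes. The 4 Arpc4ΔCx3cr1 mice were Tg(Cx3cr1-Cre) Arpc4 fl/fl, and the 4 control mice were Arpc4 fl/fl littermates without Cre. Arpc4 encodes a subunit of the Arp2/3 complex, which nucleates branched actin filaments. The Cre is constitutive and acts wherever Cx3cr1 is or was expressed, which includes microglia, CNS-associated macrophages (CAMs) and cells of the monocyte lineage, so the model is not limited to microglia. The mouse was the replicate throughout.

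Integrins are pairs of 1 α and 1 β chain that span the plasma membrane, bind matrix or counter-receptors outside the cell and connect to the actin cytoskeleton inside it through talin and kindlin. Itgam (CD11b), Itgax (CD11c) and Itgal (CD11a) encode α chains that pair with the leukocyte β chain of Itgb2 (CD18). The first forms complement receptor 3 and the last forms LFA-1, a receptor for intercellular adhesion molecules. Itgav pairs with several β chains, among them those of Itgb5 and Itgb8, and binds vitronectin and the latent form of TGF-β. Itgb1 encodes the partner of the chains of Itga4 (a receptor for VCAM1 and fibronectin), Itga6 (laminin) and Itga9 (tenascin and osteopontin). CD11b is the surface protein by which microglia are commonly gated, and CD11c marks subsets of reactive microglia and dendritic cells.

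The α chains of the β2 family lie together on mouse chromosome 7. In GRCm38 with the GENCODE vM21 annotation, Itgal spans chr7:127296260-127335138, Itgam chr7:128062640-128118491 and Itgax chr7:128129547-128150657, all protein-coding genes on the plus strand. Between Itgam and Itgax lie 11055 bases and no protein-coding gene other than Gm49368, which overlaps Itgam, and between Itgal and Itgam lie 727501 bases with 38. The other members, also on the plus strand, are Itgb2 at chr10:77530252-77565708, Itgav at chr2:83724397-83806916, Itga4 at chr2:79255426-79333123, Itga6 at chr2:71745616-71858416, Itgb5 at chr16:33829665-33949338, Itgb1 at chr8:128685654-128733200 and Itga9 at chr9:118606690-118901003. Itga6 overlaps the transcripts Gm13663 and Gm13662 on its own strand, and the effect of this overlap on its counts was not tested. Gm49368 has no row in the count tables, and Itga4 shares its end with Cerkl on the opposite strand.

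The sequences 250 bases upstream of Itgam, Itgax and Itga4 are shown because these 3 α chains moved in different directions in microglia-like cells. They were read from the RefSeq promoters of GRCm38.p6, plus strand, 5′ to 3′, at chr7:128062390-128062639, chr7:128129300-128129549 and chr2:79255176-79255425. Capitals mark GAGGAA or its reverse complement TTCCTC, the core bound by the myeloid factor PU.1, and TGANTCA, the AP-1 motif, searched on both strands.
Itgam: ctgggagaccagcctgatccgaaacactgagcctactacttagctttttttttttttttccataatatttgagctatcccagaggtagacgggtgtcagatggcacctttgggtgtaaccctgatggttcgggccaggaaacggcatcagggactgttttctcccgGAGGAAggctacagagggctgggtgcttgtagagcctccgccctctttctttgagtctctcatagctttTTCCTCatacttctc
Itgax: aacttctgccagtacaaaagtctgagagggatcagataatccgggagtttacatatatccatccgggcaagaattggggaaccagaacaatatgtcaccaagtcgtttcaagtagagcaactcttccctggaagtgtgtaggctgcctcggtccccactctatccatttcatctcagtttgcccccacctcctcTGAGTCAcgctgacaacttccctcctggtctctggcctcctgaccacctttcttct
Itga4: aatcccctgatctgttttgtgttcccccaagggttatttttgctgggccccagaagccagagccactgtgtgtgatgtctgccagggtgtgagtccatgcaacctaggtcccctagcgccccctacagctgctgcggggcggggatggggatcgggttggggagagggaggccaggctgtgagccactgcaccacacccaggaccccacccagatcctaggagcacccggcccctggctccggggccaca
The Itgam window holds 2 matches to the PU.1 core, which start 84 and 15 bases before the gene's start, and 0 to the AP-1 motif. The Itgax window holds 1 match to the AP-1 motif, 56 bases before the start, and 0 to the PU.1 core, and the Itga4 window holds 0 to either. Of the 32851 windows of this length in the table, 23.3% held the PU.1 core and 6.75% the AP-1 motif, so these matches are a description of the letters and not of binding. RefSeq entries were found for 7 of the 10 members, and the entry of Itga9 lies inside its GENCODE gene. The Itgax window ends at 128129549, past the GENCODE start of Itgax at 128129547. Distances of matches are therefore counted back from the end of each window. Of the other windows, those of Itgav and Itgb1 held 2 and 1 PU.1 cores.

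Of 19864 deposited cells, 19863 passed the filters, and 0 barcodes were shared between mice. Cells were clustered and named from marker genes, none of which is an integrin, which gave 7797 microglia-like cells in the controls and 9237 in the Arpc4ΔCx3cr1 mice. The microglia-like sums held 4188306 to 11690546 UMIs per mouse. Levels in comparisons are CPM, UMI counts scaled to a common library size with TMM factors, and levels called raw CPM are scaled to each sum's own total alone. The 4 values of a group are those of mice 1 to 4 in order. Arpc4 itself lay at 236, 216, 225 and 222 CPM in the control microglia-like sums and at 153, 148, 143 and 138 CPM in the Arpc4ΔCx3cr1 sums (log2 fold change -0.63 ± 0.05 SE, adjusted p = 5.52e-06, edgeR). Whether its 3′ tags lie in the deleted exons is not shown by these counts. Mouse 1 of the Arpc4ΔCx3cr1 group stood apart, with Xist at 1444 CPM against 3.54 to 13.8 in the other 7 mice. Xist is transcribed in female cells, and by the study's methods a female was unintentionally among the otherwise male Arpc4ΔCx3cr1 animals and was left out of the study's own analysis, although the labels do not say which mouse it was. All 4 mice were kept here, and where leaving mouse 1 out changed the call of a member, the value without it is given. The microglia markers summed to 41519 to 42136 raw CPM in the controls and to 29248 to 31609 in the Arpc4ΔCx3cr1 mice, with all 14 detected, 11 of them lower and 1, C1qa, higher without overlap. The 9 CAM markers summed to 168 to 184 and 66.8 to 157 raw CPM, the 8 monocyte markers to 8.68 to 12.9 and 6.96 to 8.77, and the 6 dendritic cell markers to 5.25 to 7.74 and 15.7 to 20.8, with Ccr7 at 0 in all mice. The 6 markers of proliferating cells summed to 3.61 to 5.54 and 5.78 to 10.5 raw CPM, with 3 higher without overlap, and the 9 of other brain tissue to 28.7 to 38.6 and 42.2 to 46.4, with 2 higher. The part of these markers in the genotype differences was not tested.

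The first comparison asked which integrin subunits differed between control and Arpc4ΔCx3cr1 microglia-like cells. Itgax, Itgal and Itga4 rose and Itgam, Itga9 and Itgb1 fell, while Itgb2, Itgb5, Itgav and Itga6 did not pass the test. All 10 members passed the filter on low counts, Itgal through the Arpc4ΔCx3cr1 sums, since 3 of its 4 control sums reached the filter, and 6 were called at an adjusted p under 0.05 by the edgeR quasi-likelihood test with Benjamini-Hochberg adjustment over 12728 genes. Of all genes tested, 46% were called, 22.9% higher and 23.2% lower, so 6 of 10 called members, 3 in each direction, stand beside a transcriptome of which close to that share moved. Itgal is among the 3 higher ones, and its call is not read as support. The groups did not overlap for 6 members, against 44.1% of all genes. The median log2 fold change was 0.06 over the members and -0.01 over all genes. Without TMM scaling the median gene of microglia-like cells shifted by -0.11 on the log2 scale.

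Among the β2 integrins, the 3 α chains changed in opposite directions while the shared β chain did not pass the test. Itgam was at 580.0, 519.7, 564 and 539.8 CPM in the 4 controls and at 359, 292, 258 and 261 CPM in the 4 Arpc4ΔCx3cr1 mice. Every Arpc4ΔCx3cr1 mouse lay below every control, with mouse 1 the least reduced (log2 fold change -0.91 ± 0.10 SE, adjusted p = 2.83e-05). Itgax was at 10.0, 6.16, 9.003 and 9.29 CPM in the controls and at 59.3, 94.97, 156 and 152 CPM in the Arpc4ΔCx3cr1 mice, 13.7-fold higher in the fit (log2 fold change 3.78 ± 0.32 SE, adjusted p = 5.33e-06). Mice 3 and 4 held more Itgax than mice 1 and 2, but the lowest of them was far above the controls. Itgal, low in controls at 1.17, 1.19, 0.965 and 1.82 CPM, reached 24.8, 14.7, 14.5 and 18.8 CPM, with mouse 1 the highest. Since Itgal entered the test through the Arpc4ΔCx3cr1 sums, its fitted fold is not given. Itgb2 was at 144, 151, 151 and 155 CPM and 175, 152, 156 and 171 CPM, and the groups overlapped (log2 fold change 0.12 ± 0.06 SE, adjusted p = 0.137).

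The 3 genes on chromosome 7 therefore did not share a direction, although Itgam and Itgax are neighbours. The empty droplets of the pool, which are the same for all mice, held Itgax at 81.2, Itgal at 26.0 and Itga4 at 15.04 raw CPM, that is, above the control microglia-like sums. The Itgal value was also above the microglia-like sums of all 4 Arpc4ΔCx3cr1 mice, which were at 13.8 to 23.8 raw CPM, and the Itgax value above that of mouse 1, at 56.8 raw CPM. When ambient RNA was subtracted at 10% or 25% of each sum, the same 6 members were called. The subtraction left 0 UMIs of Itgal in all 4 controls at both shares, and at 25% it left 0 UMIs of Itgax in all 4 and of Itga4 in 3 of them. The calls there are against sums at or near 0, and their fitted folds are not given. At 10%, 0 to 15 UMIs of Itgax were left in the controls and 522 to 1642 in the Arpc4ΔCx3cr1 mice, and the log2 fold change of Itga4 was 3.45 ± 0.31 (SE).

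The αv and β5 chains, which pair with each other, did not pass the test with all 8 mice. Itgav was at 259.8, 247, 237 and 234 CPM in the controls and 194, 240.2, 217 and 218 CPM in the Arpc4ΔCx3cr1 mice, where mouse 2 lay among the controls (log2 fold change -0.17 ± 0.07 SE, adjusted p = 0.0681). Without mouse 2 the difference passed the test at -0.22 (adjusted p = 0.021, edgeR). Itgb5 was at 905, 886, 869 and 868 CPM and 872, 898, 1053 and 907 CPM, with mouse 3 above the rest (log2 fold change 0.08 ± 0.06 SE, adjusted p = 0.329).

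Of the β1 integrins, the β chain and α9 fell, α4 rose, and α6 depended on 1 mouse. Itgb1 was at 256, 250.2, 265 and 254 CPM in the controls and 214, 205, 193 and 197 CPM in the Arpc4ΔCx3cr1 mice, a small shift that separated the groups fully (log2 fold change -0.34 ± 0.05 SE, adjusted p = 0.000307). Itga9 went from 169, 181, 165 and 169 CPM to 91.6, 117, 102 and 111 CPM, again without overlap (log2 fold change -0.70 ± 0.08 SE, adjusted p = 2.76e-05). Itga4 was at 3.03, 4.27, 3.11 and 3.33 CPM in the controls and 34.8, 25.1, 16.9 and 18.4 CPM in the Arpc4ΔCx3cr1 mice, with mouse 1 the highest (log2 fold change 2.76 ± 0.26 SE, adjusted p = 9.5e-06). Itga6 was at 299, 307, 293 and 309.8 CPM and 453, 282, 241 and 265 CPM (log2 fold change 0.04 ± 0.17 SE, adjusted p = 0.874). Mouse 1 alone lay above the controls and the other 3 lay below them, and without mouse 1 Itga6 was lower, at -0.20 ± 0.06 (SE, log2 scale) with an adjusted p of 0.0099 (edgeR).

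**Figure D1:**
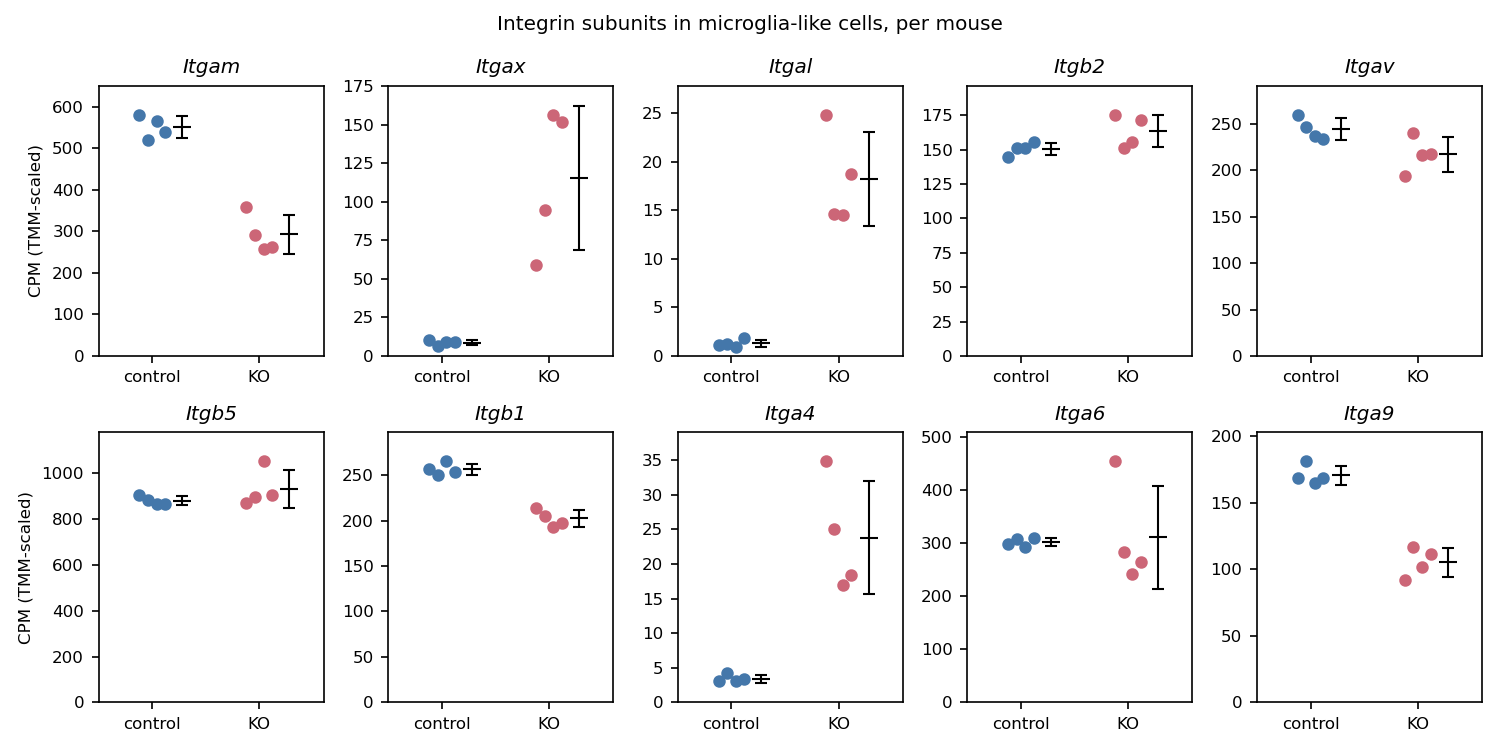
Normalized CPM of the 10 integrin subunits in microglia-like cells, 1 point per mouse and 1 panel per gene, for 4 control and 4 Arpc4ΔCx3cr1 (KO) mice, with bars for the group mean ± SD. Itgam, Itgb1 and Itga9 are lower and Itgax, Itgal and Itga4 higher in every Arpc4ΔCx3cr1 mouse, and in the Itga6 panel mouse 1 sits apart at 453 CPM.

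The share of microglia-like cells with at least 1 UMI of a gene was compared at equal depth, each cell being thinned to 2000 UMIs, which left out 289 control and 329 Arpc4ΔCx3cr1 cells. With 4 mice against 4, 0.0286 is the smallest p that the two-sided exact permutation test can give, and 10 such tests were run without adjustment. Itgam was detected in 64.9 ± 1.41% of cells in the controls and 38.3 ± 3.94% in Arpc4ΔCx3cr1 mice (SD, n = 4 and 4 mice; exact permutation test, p = 0.0286). Itgax was detected in 1.25 ± 0.110% of cells in the controls and 16.5 ± 5.63% in Arpc4ΔCx3cr1 mice (SD, n = 4 and 4 mice; exact permutation test, p = 0.0286), and with any control mouse left out its p was 0.0571 (exact permutation test), while the groups did not overlap. At this depth CD11b transcripts were thus found in fewer cells and CD11c transcripts in more, although the share with Itgax ranged from 9.54% to 21.6% between the Arpc4ΔCx3cr1 mice. Itgal was detected in 0.212 ± 0.0406% of cells in the controls and 3.14 ± 1.10% in Arpc4ΔCx3cr1 mice (SD, n = 4 and 4 mice; exact permutation test, p = 0.0286), and Itga4 in 0.618 ± 0.231% of cells in the controls and 4.15 ± 1.08% in Arpc4ΔCx3cr1 mice (SD, n = 4 and 4 mice; exact permutation test, p = 0.0286). At 2000 UMIs they were found in at most 4.67% and 5.52% of cells in any mouse, and in cells that were not thinned in at most 10.3% and 11.8%.

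Itgb1 was detected in 40.7 ± 0.312% of cells in the controls and 31.2 ± 1.34% in Arpc4ΔCx3cr1 mice (SD, n = 4 and 4 mice; exact permutation test, p = 0.0286). Itga9 was detected in 26.2 ± 0.596% of cells in the controls and 16.9 ± 1.64% in Arpc4ΔCx3cr1 mice (SD, n = 4 and 4 mice; exact permutation test, p = 0.0286). Itgav was detected in 37.1 ± 1.117% of cells in the controls and 32.2 ± 2.39% in Arpc4ΔCx3cr1 mice (SD, n = 4 and 4 mice; exact permutation test, p = 0.0286), a difference that missed the threshold in cells thinned to 3000 UMIs and in cells not thinned (p = 0.0857 in both, exact permutation test) and with any control mouse left out (p = 0.0571). The shares of Itgb2, Itgb5 and Itga6 gave p = 0.6, 0.0857 and 0.571 (exact permutation tests). That of Itgb5 reached p = 0.0286 (exact permutation test) without Arpc4ΔCx3cr1 mouse 3 and that of Itga6 without mouse 1, with differences of -4.07 and -6.52 percentage points. For comparison, among thinned B cell-like cells, which should lack CD11b and CD11c in the main, 10.7% of 56 cells held a UMI of Itgam (95% exact binomial interval 4.03 to 21.9%) and 3.57% a UMI of Itgax (0.435 to 12.3%). The median depth before thinning was 3009 UMIs in B cell-like and 4053.5 in microglia-like cells. The mean share of Itgax lay under that upper bound in the controls and above it in the Arpc4ΔCx3cr1 mice, where mouse 1, at 9.54%, lay under it and the other 3 above. Itgal was found in 3.07% of 358 CAM-like cells (1.54 to 5.43%) and Itga4 in 2.63% of 76 granulocyte-like cells (0.320 to 9.18%), 2 types with little of these transcripts. The Arpc4ΔCx3cr1 shares of Itgal and Itga4 lay within these intervals and are not read as expression on their own.

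**Figure D2:**
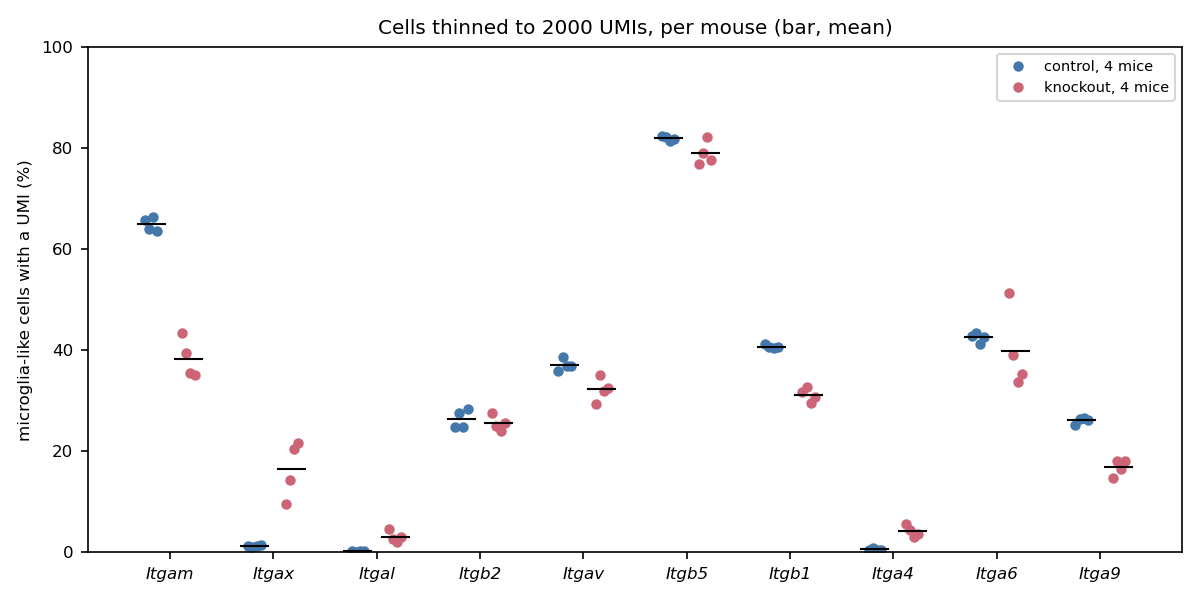
Percent of microglia-like cells with at least 1 UMI of each integrin subunit, 1 point per control or Arpc4ΔCx3cr1 (knockout) mouse with a bar for the group mean, each cell thinned to 2000 UMIs. Itgam falls from a mean of 64.9% to 38.3% and Itgax rises from 1.25% to 16.5%, while the points of the 2 groups overlap for Itgb2, Itgb5 and Itga6.

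The integrins were also described across 12 clusters of microglia-like cells, which were formed without the integrin genes. Since the clusters came from the same cells, the values are given with no test, as raw CPM of each mouse's cells in a cluster (mean ± SD over mice). Clusters 1, 2, 4 and 7 were mostly of control cells and the other 8 mostly of Arpc4ΔCx3cr1 cells. Itgam was 630 ± 45.0, 565 ± 18.9, 509 ± 25.2 and 508 ± 36.6 (n = 4) in the control cells of the first 4. In Arpc4ΔCx3cr1 cells of the larger mutant clusters it was 335 ± 87.0 in cluster 0, 304 ± 67.9 in cluster 3 (n = 3), 246 ± 43.2 in cluster 5 and 110.1 ± 10.6 in cluster 6, the cluster led by Ms4a7. Cluster 3 is led by Xist, and 1464 of its 1521 cells came from Arpc4ΔCx3cr1 mouse 1. In the smaller clusters 8 to 11 Itgam was at 226 ± 13.9, 237 ± 39.1, 178 ± 55.5 and 479 ± 134 (n = 3 in cluster 11). The mean of Itgam was thus lower in each of these 8 clusters than in the 4 control clusters, though in cluster 11 its SD reached into them, and lowest in cluster 6.

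Cluster 6, of 1405 cells, also differed from the remaining Arpc4ΔCx3cr1 cells in its other subunits. Itga4 stood at 101.6 ± 16.5 against 14.5 ± 8.20, and Itgal at 32.0 ± 4.61 against 16.0 ± 4.71 raw CPM (n = 4 mice). Itga9 stood at 171 ± 52.5 against 94.3 ± 10.0. In contrast, Itgax was at 48.0 ± 8.75 against 118 ± 48.3, Itgb2 at 93.5 ± 16.1 against 164 ± 11.2 and Itgb5 at 645 ± 46.8 against 924 ± 70.9. Within the Arpc4ΔCx3cr1 cells, high Itga4 and high Itgax were thus found in different clusters. Itgax was highest in cluster 8 at 204 ± 53.2, a cluster led by the chemokine genes Ccl4 and Ccl3. In cluster 10, led by Cst7 and Fabp5, Itga9 was at 15.5 ± 14.3 and Itgav at 57.6 ± 23.6, the lowest means of either gene among the mutant clusters, while Itgax was at 145 ± 71.8. The leading genes of cluster 6 included hemoglobin transcripts, whose part in these values was not tested.

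**Figure D3:**
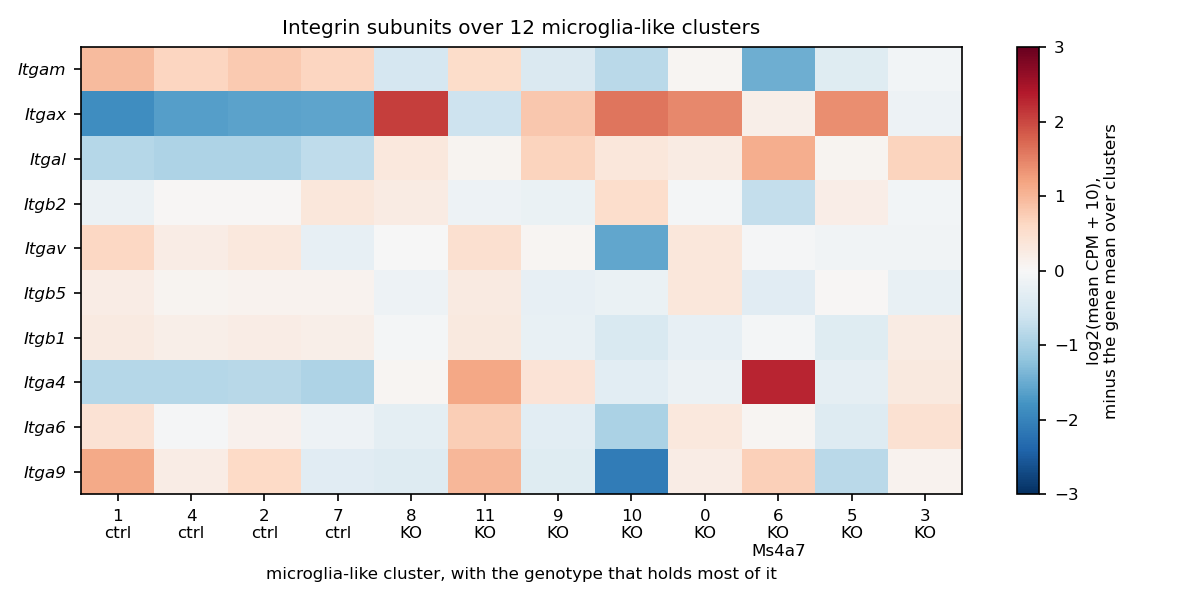
Levels of the 10 integrin subunits in the 12 microglia-like clusters, drawn for the genotype that makes up most of each cluster, with colour for log2(mean raw CPM + 10) minus the gene's mean over clusters. Cluster 6, led by Ms4a7, holds the lowest Itgam (110.1 raw CPM) and the highest Itga4 (101.6), and cluster 8 the highest Itgax (204).

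The genes most like Itgam over these 12 clusters, among 3706 genes with a mean of at least 50 raw CPM, were Il17ra (Pearson's r = 0.985), Sort1 (0.962), St3gal5 (0.959), Golm1 (0.955) and Tnfrsf21 (0.947). The clusters share cells' depth and genotype, and the values are a description.

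The second comparison asked how the integrins of Arpc4ΔCx3cr1 microglia-like cells with an Ms4a7 UMI differed from those without such a UMI. Ms4a7 encodes a membrane-spanning protein typical of CAMs and of some reactive microglia. The positive cells numbered 752, 589, 473 and 738 in mice 1 to 4. In the edgeR fit without the mouse as a block 2 members were called, Itga4 and Itgal, both higher in the positive cells, and 7 had an unadjusted p under 0.05. The 2 calls stand beside 2.94% of 11724 genes called, 1.98% higher and 0.964% lower. The groups did not overlap for 3 members, against 9.55% of genes, and the median log2 fold change was -0.08 over the members and 0.00 over all genes.

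Itga4 went from 19.5, 11.1, 7.19 and 6.70 CPM in negative cells to 60.8, 68.5, 54.9 and 43.9 CPM in positive cells of mice 1 to 4, that is, 5.19-fold higher in the fit (log2 fold change 2.37 ± 0.30 SE, adjusted p = 0.00231). It was higher in 4 of 4 mice, and the lowest positive sum was above the highest negative one. Itgal went from 19.3, 11.4, 11.8 and 14.1 CPM to 32.5, 23.1, 23.2 and 27.4 CPM (log2 fold change 0.93 ± 0.19 SE, adjusted p = 0.0259). The call was lost without mouse 2, 3 or 4, with adjusted p = 0.151, 0.119 and 0.213 and log2 fold changes of 0.90, 0.90 and 0.91.

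Itgam was at 378, 307, 261 and 275 CPM in negative cells and 274, 193, 196 and 192 CPM in positive cells (log2 fold change -0.51 ± 0.15 SE, adjusted p = 0.11). It was lower in 4 of 4 mice, but the positive cells of mouse 1 overlapped the negative cells of the others. Both sums of a mouse come from the same animal, and with the mouse as a block 7 members were called. With the block, 8.5% of genes were higher and 7.93% lower. In that fit Itgam was lower, at -0.51 ± 0.05 (SE, adjusted p = 4.92e-08), Itgb2 at -0.25 (0.00147), Itgav at -0.20 (0.00786) and Itgb5 at -0.20 (0.000967), and Itga9 was higher, at 0.46 (2.84e-05), all on the log2 scale. Itga4 and Itgal were called there too. Without mouse 1 the unblocked test also called Itgam (-0.54, adjusted p = 0.00155) and Itga9 (0.50, adjusted p = 0.00848).

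The other members were not called in the unblocked test. Itga9 was at 80.9, 108, 86.7 and 94.1 CPM and 101, 126, 146 and 137 CPM, higher in 4 of 4 mice (log2 fold change 0.46 ± 0.12 SE, adjusted p = 0.0897). Itgb2, at 177, 154, 153 and 172 CPM and 149, 119, 138 and 147 CPM, was lower in 4 of 4 mice (log2 fold change -0.24 ± 0.09 SE, adjusted p = 0.21). Itgb5 was at 874, 899, 1034 and 901 CPM and 756, 748, 929 and 799 CPM and Itgav at 188, 239, 217 and 218 CPM and 181, 205, 175 and 188 CPM, each lower in 4 of 4 mice with overlap between the groups. Itgax, Itgb1 and Itga6 gave log2 differences of -0.10 ± 0.34, 0.05 ± 0.07 and -0.06 ± 0.23 (SE; edgeR adjusted p = 0.936, 0.791 and 0.948). The CAM markers summed to 55.2 to 115 raw CPM in the negative and 115 to 293 in the positive cells, and all 9 were detected in both. The microglia markers summed to a mean of 31413 and 27518. Their part in the result was not tested. Ms4a7 was at 0 in negative cells by the choice of cells, and whether a cell holds such a UMI depends on its depth. The empty droplets held Ms4a7 at 206 raw CPM, so a single UMI can be ambient, and how many were was not tested. With cells thinned to 2000 UMIs before the choice, Itgam was lower, at -0.91 on the log2 scale (adjusted p = 0.00992, edgeR).

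**Figure D4:**
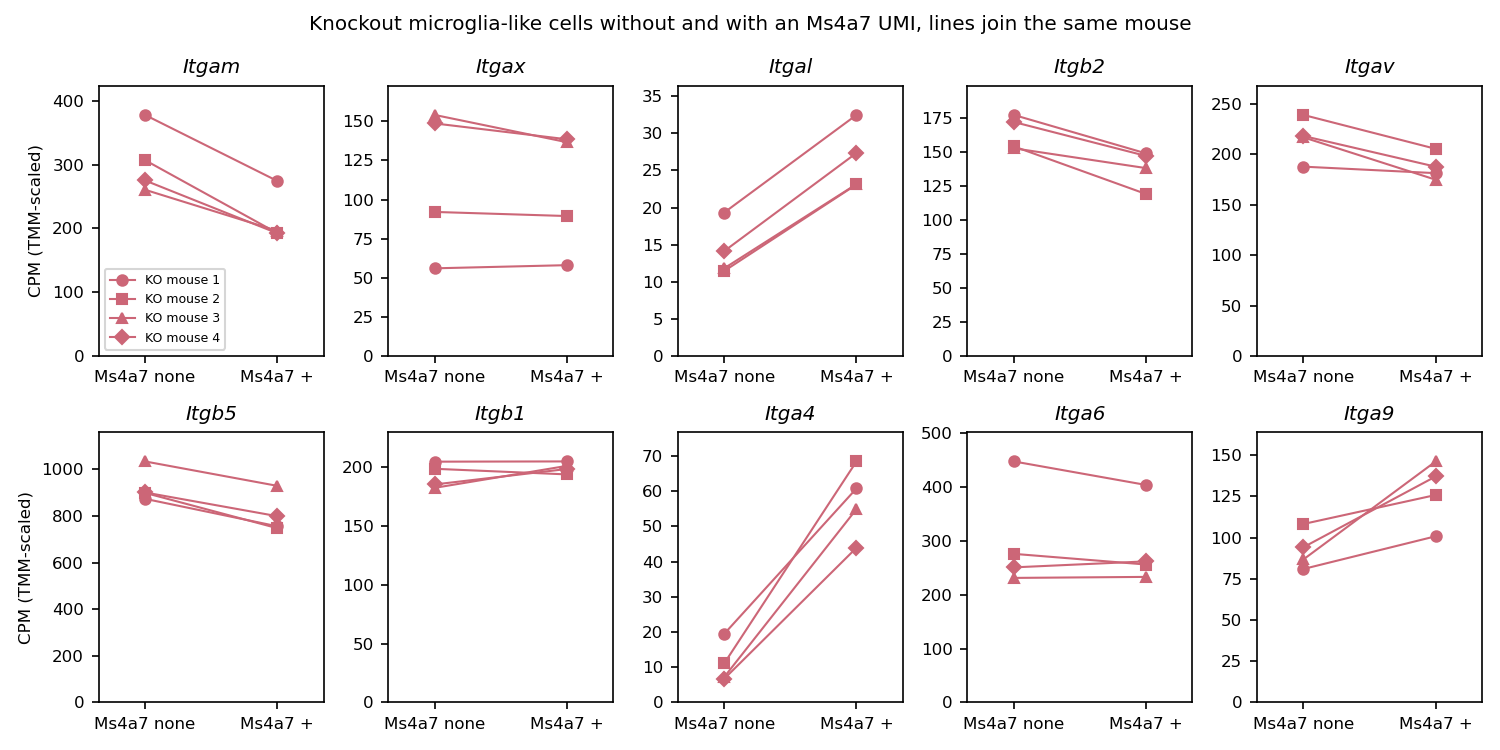
Normalized CPM of the 10 integrin subunits in Ms4a7-negative and Ms4a7-positive microglia-like cells of the 4 Arpc4ΔCx3cr1 mice, with a line joining the 2 sums of each mouse. Itga4, Itgal and Itga9 go up and Itgam, Itgb2, Itgav and Itgb5 go down in 4 of 4 mice.

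Across cell types each subunit had its own order of levels. The following levels are means over the mice with at least 10 cells of a type, in raw CPM ± SD (n = 4 mice unless stated), and are compared within a gene only. In the controls Itgam was at 570.5 ± 23.4 in microglia-like, 364 in granulocyte-like (1 mouse), 250.1 ± 35.01 in T cell-like, 171 ± 27.8 in CAM-like, 143 ± 25.4 in monocyte-like and 38.3 ± 21.9 in B cell-like cells (2 mice). In the Arpc4ΔCx3cr1 mice it was at 409 in granulocyte-like (1 mouse), 281 ± 45.5 in microglia-like, 189.6 ± 55.4 in monocyte-like, 146 ± 47.0 in CAM-like, 117 ± 17.7 in T cell-like and 27.5 in B cell-like cells (1 mouse). Within 1 SD, CAM-like and monocyte-like cells overlapped in the controls, and each neighbouring pair from microglia-like to T cell-like cells overlapped in the Arpc4ΔCx3cr1 mice. T cells should in the main lack Itgam, and natural killer cells were not separated from them in the T cell-like cluster. The level of Itgam in this cluster stood beside microglia markers of 9992 to 16063 raw CPM in the same sums. Of 297 thinned T cell-like cells, 17.2% held an Itgam UMI (95% exact binomial interval 13.1 to 22.0%).

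Itgal and Itga4 had their highest means in monocyte-like cells in both genotypes. The cluster given this name is led by Saa3, Plac8, Napsa, S100a4 and Cd209a, followed by the MHC class II genes H2-Eb1 and H2-Aa, so monocytes and dendritic cells were not separated in it. Itgal was at 175 ± 36.1 in monocyte-like, 149 ± 56.4 in T cell-like, 15.4 ± 8.89 in CAM-like and 1.33 ± 0.395 in microglia-like cells of the controls. In the Arpc4ΔCx3cr1 mice it was at 523 ± 217, 138 ± 14.9, 5.79 ± 4.03 and 17.5 ± 4.59 in the same types, so the order of the last pair differed between the genotypes. Itga4 was at 174 ± 27.5 in monocyte-like, 159 ± 64.5 in T cell-like, 97.6 ± 19.6 in CAM-like and 3.56 ± 0.606 in microglia-like cells of the controls and at 390.4 ± 119, 207 ± 100.1, 132 ± 101 and 23.0 ± 7.89 in those of the Arpc4ΔCx3cr1 mice. Monocyte-like and T cell-like cells overlapped within 1 SD in both genotypes for Itga4 and in the controls for Itgal. Itgax was at 69.2 ± 15.3 in monocyte-like, 34.2 ± 19.8 in T cell-like, 8.92 ± 1.73 in microglia-like and 6.84 ± 4.97 in CAM-like cells of the controls, and the last pair overlapped. In the Arpc4ΔCx3cr1 mice Itgax was at 111 ± 44.3 in microglia-like, 101 ± 29.7 in monocyte-like and 73.8 ± 38.6 in T cell-like cells, which overlapped, and at 19.2 ± 10.3 in CAM-like cells. Itgb2, the β chain that LFA-1 needs, was at 247 ± 37.5 in monocyte-like, 206 in granulocyte-like (1 mouse), 178 ± 29.6 in T cell-like, 156 ± 6.13 in microglia-like and 91.3 ± 28.2 in CAM-like cells of the controls. In the Arpc4ΔCx3cr1 mice it was at 409 ± 25.4, 261 (1 mouse), 149.6 ± 32.1, 157 ± 10.3 and 83.8 ± 40.0 in the same types, where T cell-like and microglia-like cells changed places and overlapped within 1 SD in both genotypes.

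Itgb5, Itgav and Itga6 had their highest means in microglia-like cells among the named types in both genotypes, and are given with both together (n = 8). Itgb5 was at 905 ± 49.6 there, above 369 ± 80.7 in T cell-like, 341 ± 84.9 in CAM-like and 139 ± 94.9 in monocyte-like cells by more than the spread. Proliferating cells, a cluster led by Elane, Prtn3 and Mpo as well as Top2a, came second in all 3 genes, at 476 ± 275 for Itgb5, 131 ± 56.3 for Itgav and 163 ± 69.5 for Itga6 (n = 7), and their highest Itgb5 value, 925.5, was within the range of microglia-like cells. Itgav was at 231 ± 27.8 in microglia-like cells, 101 ± 36.1 in CAM-like cells and 97.7 ± 61.2 in monocyte-like cells. Itga6 was at 306 ± 61.6, 153 ± 35.2 and 45.3 ± 53.0 in the same order. Itga9 was at 177 ± 7.95 in microglia-like, 123 ± 30.9 in CAM-like and 64.7 ± 20.8 in T cell-like cells of the controls. In the Arpc4ΔCx3cr1 mice it was at 111 ± 35.2 in CAM-like and 101 ± 11.5 in microglia-like cells, which overlapped, and at 16.1 ± 11.5 in T cell-like cells. Itgb1 was at 408 ± 20.8 in T cell-like, 265 ± 6.11 in microglia-like, 246 ± 16.4 in CAM-like and 238 ± 68.7 in monocyte-like cells of the controls. In the Arpc4ΔCx3cr1 mice Itgb1 was at 383 ± 55.0 in T cell-like, 345 ± 54.7 in monocyte-like, 221 ± 39.2 in CAM-like and 195 ± 10.1 in microglia-like cells.

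CAMs are macrophages of the brain borders that also express Cx3cr1, and the next comparison asked whether their integrins followed those of microglia. The 414 CAM-like cells, 287 of control and 127 of Arpc4ΔCx3cr1 mice, gave 0 called members of 8 tested, beside 1.02% of 3533 genes (edgeR). At an unadjusted p under 0.05 there was 1 member, Itgb5, beside 10.6% of genes, and DESeq2 called 0 members beside 1.36% of 2574 genes. The median log2 fold change was -0.15 over the 8 members and 0.02 over all genes. Itgb5 was at 469.9, 501, 439.9 and 472 CPM in the controls and 348, 391, 353 and 206 CPM in the Arpc4ΔCx3cr1 mice, without overlap (log2 fold change -0.53 ± 0.21 SE, adjusted p = 0.335). Itgam was at 174, 176, 247 and 195 CPM and 251, 94.8, 172 and 175 CPM, with broad overlap (log2 fold change -0.17 ± 0.25 SE, adjusted p = 0.859). Itga4 was at 96.9, 90.2, 137 and 128 CPM and 64.7, 130.4, 99.5 and 309 CPM, where mouse 4 alone lay above the controls by far (log2 fold change 0.34 ± 0.34 SE, adjusted p = 0.781).

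The other CAM-like members did not pass the test or were too few to test. Itgb2, Itgav, Itgb1, Itga6 and Itga9 had log2 fold changes of -0.10, -0.44, -0.12, -0.17 and -0.13, with SE from 0.21 to 0.32. Itgal gave 5, 6, 6 and 1 UMIs in the controls and 1, 0, 1 and 1 in the Arpc4ΔCx3cr1 mice, and Itgax 2, 3, 0 and 2 and 2, 3, 3 and 1, which was too few to test. Arpc4 in CAM-like cells was at 262, 189, 241 and 203 CPM in the controls and 316, 225, 271 and 257 CPM in the Arpc4ΔCx3cr1 mice (log2 fold change 0.27 ± 0.21 SE, adjusted p = 0.717), so no fall of the targeted gene was detected at this depth. Its genotype effect is set against that in microglia-like cells below. With clusters at resolution 0.4, the CAM-like cluster held 1600 cells, 1276 of them of Arpc4ΔCx3cr1 mice, and Itgax was called there (2.01, log2 scale). Of those 1276 cells, 1149 were microglia-like at the resolution used here, whereas 287 of the 324 control cells were CAM-like. In the clustering of all cells, 1148 of the 1149 lay in a cluster of 1305 cells led by hemoglobin genes and Ms4a7. The value at resolution 0.4 thus sets cells of different clusters side by side. The class of the 1149 cells depended on the resolution and was not tested, so this value is not read as a difference within CAM-like cells.

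The difference between the genotype effects in CAM-like and microglia-like cells was tested as an interaction over 11105 genes, of which 4.81% were called, 4.03% lower. The effect of Itga4 was lower in CAM-like cells, by a difference of -2.51 ± 0.46 (SE, log2 scale; edgeR adjusted p = 0.0014), as was that of Itgb5, at -0.70 ± 0.20 (0.0414). Itgal also passed the threshold, but it gave 18 and 3 UMIs in the control and Arpc4ΔCx3cr1 CAM-like cells, had been too low to test in those cells alone, and reached the filter in 4 of 4 sums of the microglia-like Arpc4ΔCx3cr1 cells and in 0 of the microglia-like controls. A difference of effects for Itgal is therefore not read from these data. The Itgb5 call was lost with the mouse as a block (adjusted p = 0.052), with DESeq2 size factors (0.0772) and when any control mouse or Arpc4ΔCx3cr1 mouse 3 or 4 was left out. For Itgam the difference of effects was 0.66 ± 0.27 (SE, edgeR adjusted p = 0.203), which did not pass the test. Arpc4 itself was called in this fit, with an effect higher in CAM-like cells by 0.82 ± 0.18 (SE, log2 scale; edgeR adjusted p = 0.0074). The fall of Arpc4 in microglia-like cells was thus not matched in CAM-like cells, and its part in the integrin differences was not tested.

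**Figure D5:**
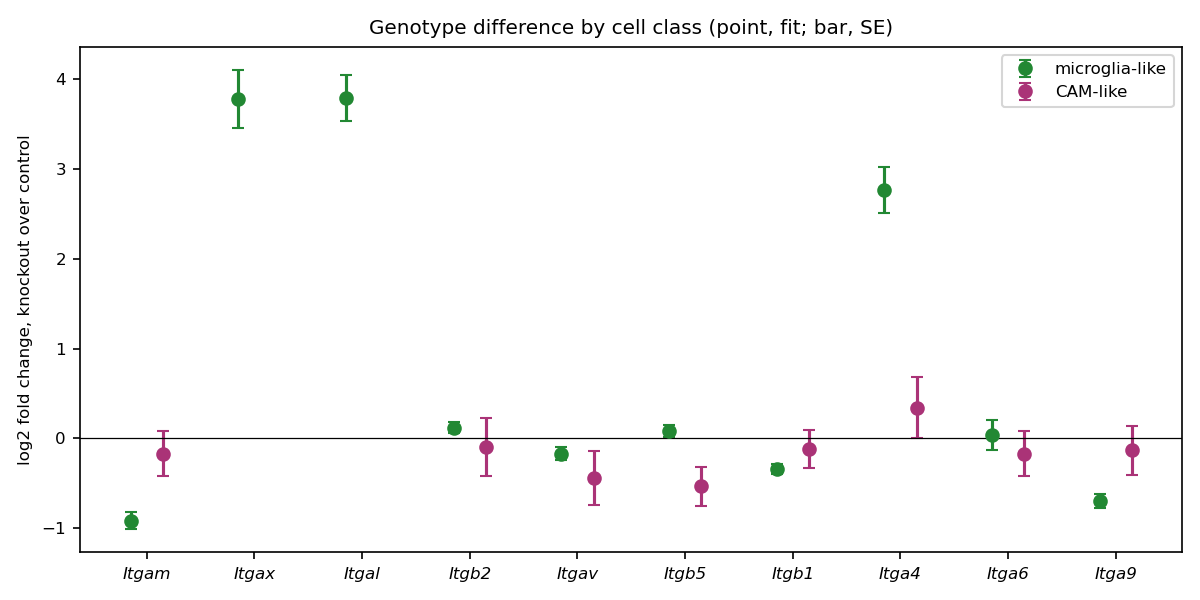
Log2 fold change of Arpc4ΔCx3cr1 (knockout) over control mice, points for the fit and bars for its SE, for the integrin subunits in microglia-like and CAM-like cells. The microglia-like value of Itga4 (2.76) is far above 0, and in CAM-like cells 0 members passed the test. Itgal entered the microglia-like test through the Arpc4ΔCx3cr1 sums, and its point is not read as support.

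In the monocyte-like cluster, of 114 control and 232 Arpc4ΔCx3cr1 cells, of which mice 1 and 3 gave 114 and 83, the sums of Itgal and Itga4 were higher in the Arpc4ΔCx3cr1 mice. Of 8 members tested, 2 were called, both higher, whereas of 3079 genes tested 7.34% were called and 2.7% were called higher. The median log2 fold change was 0.55 over the 8 members and 0.02 over all genes. Itgal was at 253, 166, 250.3 and 188 CPM in the controls and 436, 440.0, 917 and 483 CPM in the Arpc4ΔCx3cr1 mice, each above all controls (log2 fold change 1.43 ± 0.27 SE, adjusted p = 0.00709). Itga4 was at 221, 187, 255 and 188 CPM and 301, 431, 598 and 372 CPM, also without overlap (log2 fold change 0.99 ± 0.24 SE, adjusted p = 0.0227). The Itga4 call was lost without control mouse 1, 2 or 4 or without Arpc4ΔCx3cr1 mouse 3, with adjusted p from 0.0704 to 0.0928. Itgb2 was at 284, 348, 245 and 333 CPM and 453, 431, 478 and 421 CPM (log2 fold change 0.57 ± 0.18 SE, adjusted p = 0.0724). Arpc4 in these sums was at 305 ± 48.8 CPM in the controls and 299 ± 41.0 CPM in the Arpc4ΔCx3cr1 mice (mean ± SD, n = 4 and 4 mice). Its log2 fold change was -0.04 ± 0.19 (SE, edgeR adjusted p = 0.965), so no fall of the targeted gene was detected.

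In this cluster the dendritic cell marker sums did not overlap between the genotypes, and the monocyte marker sums did. The monocyte markers summed to 1061 to 1793 raw CPM in the controls and 1404 to 4491 in the Arpc4ΔCx3cr1 mice, and the dendritic cell markers to 861 to 1495 and 147 to 618. All 8 monocyte markers were detected in both groups, and of the 6 dendritic cell markers Ccr7 was at 0 in the Arpc4ΔCx3cr1 mice. More of one cell type and more RNA per cell cannot be told apart in these sums, and the part of the markers in the Itgal and Itga4 values was not tested. Itgam, Itgax, Itgav, Itgb5 and Itgb1 had log2 fold changes from 0.32 to 0.81 with SE from 0.22 to 0.40, and Itga6 and Itga9 were too low to test.

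T cells in the main do not express Cx3cr1. The cluster named T cell-like is led by Gzma, Nkg7, Cd3g, Trbc2 and Ccl5. No cluster was named for natural killer cells, so T cells and natural killer cells were not separated in it. In T cell-like cells 2 of 10 members were called, Itgam and Itga9, both lower (edgeR). Of 4204 genes tested, 3.88% were called and 2.45% were called lower. The median log2 fold change was -0.12 over the members and 0.03 over all genes. Itgam was at 316, 305, 237 and 257 CPM in the controls and 106, 139, 157 and 146 CPM in the Arpc4ΔCx3cr1 mice (log2 fold change -1.01 ± 0.20 SE, adjusted p = 0.00277). Itga9 passed the filter through the control sums, with 0 of 4 Arpc4ΔCx3cr1 sums reaching it. It rested on 6, 20, 11 and 12 UMIs in the controls and 1, 4, 2 and 7 UMIs in the Arpc4ΔCx3cr1 mice. Its fitted fold is therefore not given, and its part in the count of 2 is not read as support. The Itga9 call was lost without control mouse 2 (adjusted p = 0.107) or Arpc4ΔCx3cr1 mouse 3 (0.0506). In the same T cell-like sums the 14 microglia markers, all detected, went from 13273 to 16063 raw CPM in the controls to 9992 to 11941 in the Arpc4ΔCx3cr1 mice, with 10 of 14 lower without overlap. Their part in the result was not tested. Itgax was at 57.5, 23.8, 58.2 and 14.3 CPM and 19.3, 108, 98.4 and 120.4 CPM (log2 fold change 1.15 ± 0.45 SE, adjusted p = 0.202), and was called without Arpc4ΔCx3cr1 mouse 1 (1.499, adjusted p = 0.0147). Itgal and Itga4, the subunits T cells use in LFA-1 and VLA-4, had log2 fold changes of 0.02 ± 0.24 and 0.41 ± 0.29 (SE). That of Arpc4 was -0.29 ± 0.21 (SE, edgeR adjusted p = 0.6), which did not pass the test.

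The other genes of the integrin system were counted from lists of the remaining subunits, the activators and adaptors, the ligands and the TGF-β ligands with their latent-complex partners. Of the 16 other subunits, 7 were tested in microglia-like cells, of which 5 rose and 2 fell, beside 22.9% of 12728 genes higher and 23.2% lower. Of these 7, Itga8, Itga10 and Itgad had 0, 2 and 0 control sums at or above the filter of 1.014 CPM in 4 sums and passed it only through the Arpc4ΔCx3cr1 sums. The count of 5 is in part set by the filter and is not read as support. Itgb8, whose product pairs with αv to release active TGF-β, was at 7.47, 3.97, 6.32 and 7.27 CPM in the controls and 118, 144, 149 and 181 CPM in the Arpc4ΔCx3cr1 mice (log2 fold change 4.60 ± 0.18 SE, edgeR adjusted p = 5.97e-08). Its partner Itgav, as described, did not pass the test. Itgb3, the β chain of the vitronectin receptor αvβ3, went from 38.3, 34.5, 38.4 and 38.9 CPM to 16.5, 17.9, 14.2 and 21.0 CPM (-1.10 ± 0.11, adjusted p = 1.42e-05). Itga8, an α partner of β1, gave 9 UMIs in the 4 controls together and 152 in the Arpc4ΔCx3cr1 mice, and Itga10, a collagen-binding chain, gave 27 and 94. Both passed the test, but since 2 control sums of Itga8 were at 0 and both genes entered through the Arpc4ΔCx3cr1 sums, their fitted folds are not given. The Itga10 call was lost without control mouse 1 or 3 or Arpc4ΔCx3cr1 mouse 3 (adjusted p = 0.0586, 0.0826 and 0.0711). When single mice were left out, 3 to 5 of the other subunits were higher and 2 lower.

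Of the 26 activators and adaptors, 21 were tested, of which 3 rose and 11 fell, beside the same 22.9% and 23.2% of genes. Rasgrp3, an exchange factor for Rap GTPases, fell by 0.74 ± 0.19 (SE, log2 scale; edgeR adjusted p = 0.00737), from 509, 459, 489 and 459.8 CPM to 165, 312, 313 and 356 CPM, with mouse 1 the lowest. Zyx (zyxin, a focal adhesion protein) fell by 0.73 and the parvin gene Parvb and the kinase gene Ptk2b rose by 0.87 and 0.68. Of the 27 ligands, 26 were in the tables and 11 were tested, of which 7 rose and 3 fell, again beside 22.9% and 23.2% of genes. Fn1 (fibronectin) was at 1.40, 1.69, 1.82 and 3.84 CPM and 288, 8.45, 12.3 and 21.8 CPM, a log2 fold change of 5.15 ± 1.34 (SE) that came to 2.63 without mouse 1 and passed the edgeR test both ways (adjusted p = 0.00926 and 3.17e-05). Spp1 (osteopontin) was at 21.7, 11.1, 13.7 and 11.2 CPM and 952, 157, 157 and 286 CPM, with a log2 fold change of 4.81 ± 0.64 (SE) and of 3.90 without mouse 1. Complement C3, a ligand of the Itgam and Itgax receptors once cleaved, rose by 3.99 and Vcam1, the counter-receptor of α4β1, by 3.19 on the log2 scale. Of the 9 TGF-β ligands and partners, 2 were tested and both fell, Tgfb1 by 0.54 and Nrros by 0.18. The Nrros call was lost without control mouse 1 or Arpc4ΔCx3cr1 mouse 3 (adjusted p = 0.0779 and 0.0641). With a mouse left out, Tgfb2 or Ltbp3 passed the filter on low counts in some fits, and 0 to 2 members of this list were higher.

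In the comparison of Ms4a7-positive with negative cells, 6 of the other subunits were tested. Itgb8 (log2 fold change 0.76) was higher and Itgb3 (-0.95) was lower in the positive cells, with edgeR adjusted p of 0.0487 and 0.0232. Itga8 was also called higher. These calls stand beside 2.94% of 11724 genes called. Without mouse 2, 3 or 4 the calls of Itgb8 (adjusted p = 0.304, 0.257 and 0.17) and of Itgb3 (0.198, 0.0507 and 0.0566) were lost. Itgb8 was at 101, 117, 121 and 147 CPM in the negative cells and 136, 210.2, 239.7 and 238 CPM in the positive cells of mice 1 to 4, higher in 4 of 4 mice. With each mouse left out in turn, 1 to 2 of these subunits were higher and 0 to 1 lower. Itga8 passed the filter only through the positive cells, with 0 of 4 negative sums reaching it. Its fitted fold is therefore not given, and its call is not read as support. Of the 21 activators and adaptors tested, 1 was called, beside 0.964% of all genes called lower. It was Ptk2 (focal adhesion kinase), which was lower, at -1.001 on the log2 scale (adjusted p = 0.0262). Of the 12 ligands tested, 1 was called, Jam2, a junctional adhesion molecule, which was lower, at -0.99 (adjusted p = 0.0389). Both calls were lost when mouse 3 or 4 was left out, and that of Jam2 also without mouse 2. Without mouse 1, 1 activator or adaptor was higher (Parvb, 0.46) and 3 were lower (Ptk2, Tln2 at -0.53 and Apbb1ip at -0.38), and 2 ligands were lower (Jam2 and F11r, at -0.26), with adjusted p of 0.0392 for Parvb, 0.00206 for Tln2, 0.0175 for Apbb1ip and 0.0462 for F11r. These 4 genes were named after their values were seen. With the mouse as a block, the same 3 of the 6 other subunits were called, 2 higher and 1 lower, and their values were higher or lower in 4 of 4 mice. In that fit 2 of the 21 activators and adaptors were higher (Parvb and Ptk2b) and 7 lower (Tln2, Fermt3, Apbb1ip, Rasgrp3, Lims1, Zyx and Ptk2), and 3 of the 12 ligands were higher (Vcam1, Spp1 and C3) and 4 lower (Icam1, Fn1, F11r and Jam2), beside 8.5% of genes higher and 7.93% lower. Of the 2 TGF-β genes tested, Nrros was higher in it by 0.20 on the log2 scale (edgeR adjusted p = 0.0077), the opposite direction to its difference between the genotypes.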

How the data were processed

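CD45+ brain cells of 4 control and 4 Arpc4ΔCx3cr1 mice were measured in 1 pooled 3′ single-cell library. The authors aligned reads to mm10 with Cell Ranger (6.1.2 in the submitters' processing notes, a later version in the file header), split the cells by mouse tag and deposited tables of raw UMI counts, uncorrected for ambient RNA. Genotypes were taken from the label of the sample. The integrin subunits and the gene lists were chosen with earlier results of these data known.

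Cells under 200 genes or over 20% mitochondrial UMIs were left out, and the rest were clustered in Seurat 5.3.0 (20 components, resolution 0.8), and clusters were named from marker genes, so class sizes can differ from the study's own. No doublet caller was run, and leaving out the highest 2% of cells by UMIs was an alternative. Clusters with a median of 1202 UMIs per cell (1502 cells) stayed unnamed. Microglia-like cells were clustered again without 50 genes. Of these, 31 had symbols that start with Itg, among them the 10 members and also genes such as the adaptor gene Itgb1bp1. UMIs were summed per mouse over classes with at least 10 cells and tested with edgeR 4.0.16 in R 4.3.3 (filterByExpr, TMM, quasi-likelihood test, Benjamini-Hochberg over all genes tested, 0.05). p-values measure the spread between mice, whose litters the labels do not give, and intervals of shares cover counting error only. Depth was 5251527 to 12878691 UMIs per mouse.

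Named were the 10 members, Arpc4, Ms4a7, and of each list at most 4 genes that passed with the largest change, besides the 5 genes most like Itgam. Genes that cell types, clusters or a few counts singled out were named after their values were seen. The alternatives were DESeq2 1.42.0 (test and size factors), no count filter, a stricter cell filter (500 genes, 10%), ambient RNA subtracted, other resolutions and depths, the replicate block and each mouse left out. Same-numbered mice of the 2 genotypes did not deviate together (r from -0.08 to -0.01), whereas the 2 Ms4a7 sums of a mouse, from the same animal, did (0.33 to 0.69). The edgeR script was tested on simulated data.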

Additional observations from a re-analysis of the deposited data

Results flagged for a closer look

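In 6 of 100 groups of 4 sums, 1 sum lay far from the other 3, its gap taking up more of the group's range than Dixon's 95% critical value. Chance alone marks about 1 in 20 groups. In Ms4a7-positive cells of Arpc4ΔCx3cr1 mouse 1, Itgam was at 274 CPM against 192 to 196 in the other mice (gap 0.954 of the range) and Itga6 at 404 against 233 to 262 (0.831). In Ms4a7-negative cells of mouse 3, Itgb5 was at 1034 CPM against 874 to 901 (0.83). In monocyte-like cells of mouse 3, Itgal was at 917 CPM against 436 to 483 (0.903) and Itgax at 61.1 against 124 to 128 (0.933). In T cell-like cells of mouse 1, Itgb5 was at 323 CPM against 402 to 408 (0.927).

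The genotype effect differed between CAM-like and microglia-like cells, by the interaction test in edgeR, for Itgal by -5.114, for Itga4 by -2.512 and for Itgb5 by -0.6953 (log2 scale, CAM-like minus microglia-like; adjusted p = 0.000439, 0.0014 and 0.0414). The Itgal value rests on 18 control and 3 Arpc4ΔCx3cr1 UMIs in CAM-like cells, too few to test there. In microglia-like cells 0 of 4 control sums and 4 of 4 Arpc4ΔCx3cr1 sums of Itgal reached the filter. It is therefore given as a value and not read as a difference between the cell types. The Itgb5 call was lost with the replicate block (adjusted p = 0.052), with DESeq2 size factors (0.0772) and without any control mouse or Arpc4ΔCx3cr1 mouse 3 or 4 (0.0551 to 0.125).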

How the results depend on the processing

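Of 95 counts of called members under other settings, 78 stayed within 1.5 times the reported count, and of 894 values of single members 817 kept their direction and their side of the threshold. In microglia-like cells the 6 reported members were called under every setting tried, and 6 to 7 members with a mouse left out, the added one being Itgav without Arpc4ΔCx3cr1 mouse 2 (adjusted p = 0.021) and Itga6 without mouse 1 (0.0099). Itgal, 1 of the 6, entered the test through the Arpc4ΔCx3cr1 sums and was at 0 UMIs in all 4 controls after ambient RNA was subtracted. Its calls are not read as support. The count for Ms4a7-positive cells was 2, and 4 with DESeq2, 4 without the count filter, 7 with the replicate block, 5 with at least 2 Ms4a7 UMIs, 4 in cells thinned to 2000 UMIs, 6 in thinned cells with the replicate block (chosen after seeing the data) and 1 to 4 with a mouse left out. Leaving out a mouse gave 1 to 2 members in monocyte-like and 1 to 3 in T cell-like cells. In CAM-like cells resolution 0.4 gave 1 member in place of 0, in a cluster whose Arpc4ΔCx3cr1 cells were microglia-like in 1149 of 1276 at the resolution used. The class of these cells depended on the resolution and was not tested, so the values are not read as differences within CAM-like cells. Itga6 in microglia-like cells turned to -0.012 with the replicate block, -0.20 without Arpc4ΔCx3cr1 mouse 1 and -0.21 without that mouse and control mouse 1 (added after seeing the data). In CAM-like cells at resolution 0.4, Itgb2 came to 0.026, Itgav to 0.40, Itgb5 to 0.39, Itga4 to -0.0031, Itga6 to 0.48 and Itga9 to 0.38. With a mouse left out, values there ran from -0.42 to 0.0014 (Itgam), -0.30 to 0.14 (Itgb2), -0.28 to 0.62 (Itga4), -0.32 to 0.018 (Itga6) and -0.37 to 0.065 (Itga9). In T cell-like cells Itgal came to -0.014 with DESeq2 and -0.003877 with the replicate block, and with a mouse left out ran from -0.16 to 0.27, Itgb1 from -0.10 to 0.070 and Itga6 from -0.22 to 0.12. The difference in the share of cells with Itgb2 turned to 1.40 percentage points in cells that were not thinned. The causes were not tested, apart from the fewer sums where a mouse was left out. With the replicate block, no call between genotypes changed in microglia-like, CAM-like, monocyte-like or T cell-like cells, and the mouse numbers are not known to pair mice. Sums of CAM-like, monocyte-like and T cell-like cells limit what could be detected for Itgal, Itgax and Itga9.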
